A study of Mus musculus with 238 samples.

Results

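A set of 10 genes of copper and iron handling was followed across the mouse brain and liver: the copper importer Slc31a1, the metal reductase Steap2, the copper pumps Atp7a and Atp7b, the iron importer Slc11a2, the iron exporter Slc40a1, the ferroxidase Cp, the ferritin subunits Fth1 and Ftl1, and the hormone gene Hamp. These are 10 of the 21076 genes in the count table and were listed by name, with earlier results of these data known. All 10 had a row. The list was chosen by measured values, most likely the plasma differences of Slc31a1 and Steap2 in corpus callosum and SVZ (the subventricular zone). These differences are given as a description, with the fits across all genes beside them, and nothing is supported with them.

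The mice were of the C57BL/6JN strain and 19 months old, and 2 separate sets of animals were studied. Female mice either ate freely (AL, 4 mice) or were dietary restricted (aDR, 5 mice; their liver libraries carry the label DR). Male mice received injections behind the eye of plasma from young mice (YMP, 3 mice) or of PBS, a buffered saline (4 mice). Sex and experiment are the same split, so their effects cannot be told apart. Bulk RNA was sequenced in 15 brain regions of both sets and in the liver of the diet mice, which gave 229 brain and 9 liver libraries with 2 to 5 libraries per region and treatment. The libraries held between 605614 and 32410417 counts, with a median of 8444258. The mouse is the replicate within each tissue and in the brain values per mouse, so that those p-values measure the spread between mice. The fits between tissues and of region by treatment took each library as a unit. Their p-values therefore rest on the number of libraries as well as of mice.

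Copper enters cells through Slc31a1 after reduction, and Atp7a and Atp7b move it into the secretory pathway or out of the cell. Copper is also the cofactor of ceruloplasmin, the Cp product, which oxidises iron as it leaves a cell through ferroportin, the Slc40a1 product. Iron that stays inside is stored in ferritin shells built of Fth1 and Ftl1 chains, and hepcidin, made by the liver from Hamp, binds ferroportin and has it degraded. In the brain the choroid plexus, the epithelium that makes cerebrospinal fluid, is known as a site of copper entry, and oligodendrocytes are known as iron-rich cells.

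The genes lie on 9 chromosomes of GRCm38, and all are protein-coding. The copper genes are Slc31a1 (chr4:62360727-62391769, plus strand), Steap2 (chr5:5664829-5694578, minus), Atp7a (chrX:106027276-106124926, plus), Atp7b (chr8:21992785-22060305, minus) and Cp (chr3:19957054-20009145, plus). The iron genes are Slc11a2 (chr15:100387898-100425072, minus), Slc40a1 (chr1:45908068-45926523, minus), Fth1 (chr19:9980598-9985098, plus), Ftl1 (chr7:45457944-45459884, minus) and Hamp (chr7:30942368-30944032, minus).

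Part of this control acts on translation rather than on RNA level: iron regulatory proteins bind a short hairpin in the 5′ untranslated region when iron is scarce. A hairpin of this form (a bulged C, a stem of 5 base pairs and the loop CAGTGN) was found by a script in the 5′ untranslated regions of 3 members, and the hairpins are shown because a count of RNA does not read out that step. Capitals mark the loop, and coordinates are those of GENCODE on GRCm38.
Slc40a1, chr1:45925471-45925487, minus strand: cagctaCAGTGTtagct
Fth1, chr19:9982738-9982754, plus strand: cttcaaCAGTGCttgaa
Ftl1, chr7:45459785-45459801, minus strand: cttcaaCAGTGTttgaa
Of 19741 protein-coding genes searched, 210 (1.06%) held a match. A match is a description of letters, not of binding.

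The sequence before the start site was also searched in RefSeq promoters (GRCm38.p6) for the cores of the metal response element (TGCACNC and TGCGCNC) and the BMP response element (GGCGCC) on both strands. Of 32851 promoter windows, 12.6%, 15.4% and 11.9% held these letters. Slc40a1 and Slc11a2 had no window to search. Atp7b held TGCACNC (first base at -157 from the start site), and Steap2 held TGCGCNC in a window (first base at -130). In Atp7a both metal response cores lay close together, on the strand opposite to the gene. They stand in capitals in the stretch from 140 to 111 bases before the start site (chrX:106027084-106027113, plus strand).
Atp7a: gaatgcatGCGTGCAccaggGGGCGCAagg
Hamp, the member with the sharpest tissue boundary in these data, held GGCGCC, in capitals, in the 150 bases before its start site (chr7:30944030-30944179, minus strand).
Hamp: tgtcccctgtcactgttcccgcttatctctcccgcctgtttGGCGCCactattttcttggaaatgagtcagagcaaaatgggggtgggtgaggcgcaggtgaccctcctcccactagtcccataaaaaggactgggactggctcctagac
Neither stretch was tied to a measurement of binding.

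Some libraries stood apart from their labels, and the values in pons and hypothalamus that rest on them are also given without them. Levels are in CPM, counts scaled to a common library size with factors from the trimmed mean of M values (TMM). The summed level of 12 choroid plexus genes (Ttr, Folr1, Kcne2 and others) ran from 164 to 15753 CPM in the 16 choroid plexus libraries, with the lowest in YMP mouse 73, and reached 20910 CPM in a library labelled SVZ. In the 185 libraries of the other 12 brain regions its median was 18.8 CPM, but 6 of them were at or above 1000 CPM. In pons, 4 libraries held 2.61 to 19.9 CPM of 3 hindbrain genes against 45.8 CPM or more in the other 11, and the hypothalamus library of PBS mouse 72 held 2.73 CPM of 3 hypothalamic genes, whose median over hypothalamus libraries was 1201 CPM. Liver libraries held at least 131395 CPM of 5 hepatocyte genes.

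The members fell into very different ranges of abundance. Per kilobase of exon, in AL mice, Fth1 was the highest in brain (median over the 15 regions 1001 CPM per kb), followed by Ftl1 (363 CPM per kb). Slc31a1 (7.68), Slc11a2 (5.15), Slc40a1 (2.39), Steap2 (1.86), Cp (1.84) and Atp7a (1.51 CPM per kb) lay far lower, and Atp7b was at 0.197 CPM per kb. Hamp had 1 count in all 229 brain libraries together, or 4.7e-04 CPM (95% exact Poisson interval 1.2e-05 to 0.0026, which covers counting error only, since PCR copies were not told apart). The read counts of Ftl1 and Hamp can be shared with the near copies Ftl1-ps1 and Hamp2. Without strand information those of Slc31a1 and Cp can include reads of Cdc26 and Hps3, which overlap them on the other strand.

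**Figure D1:**
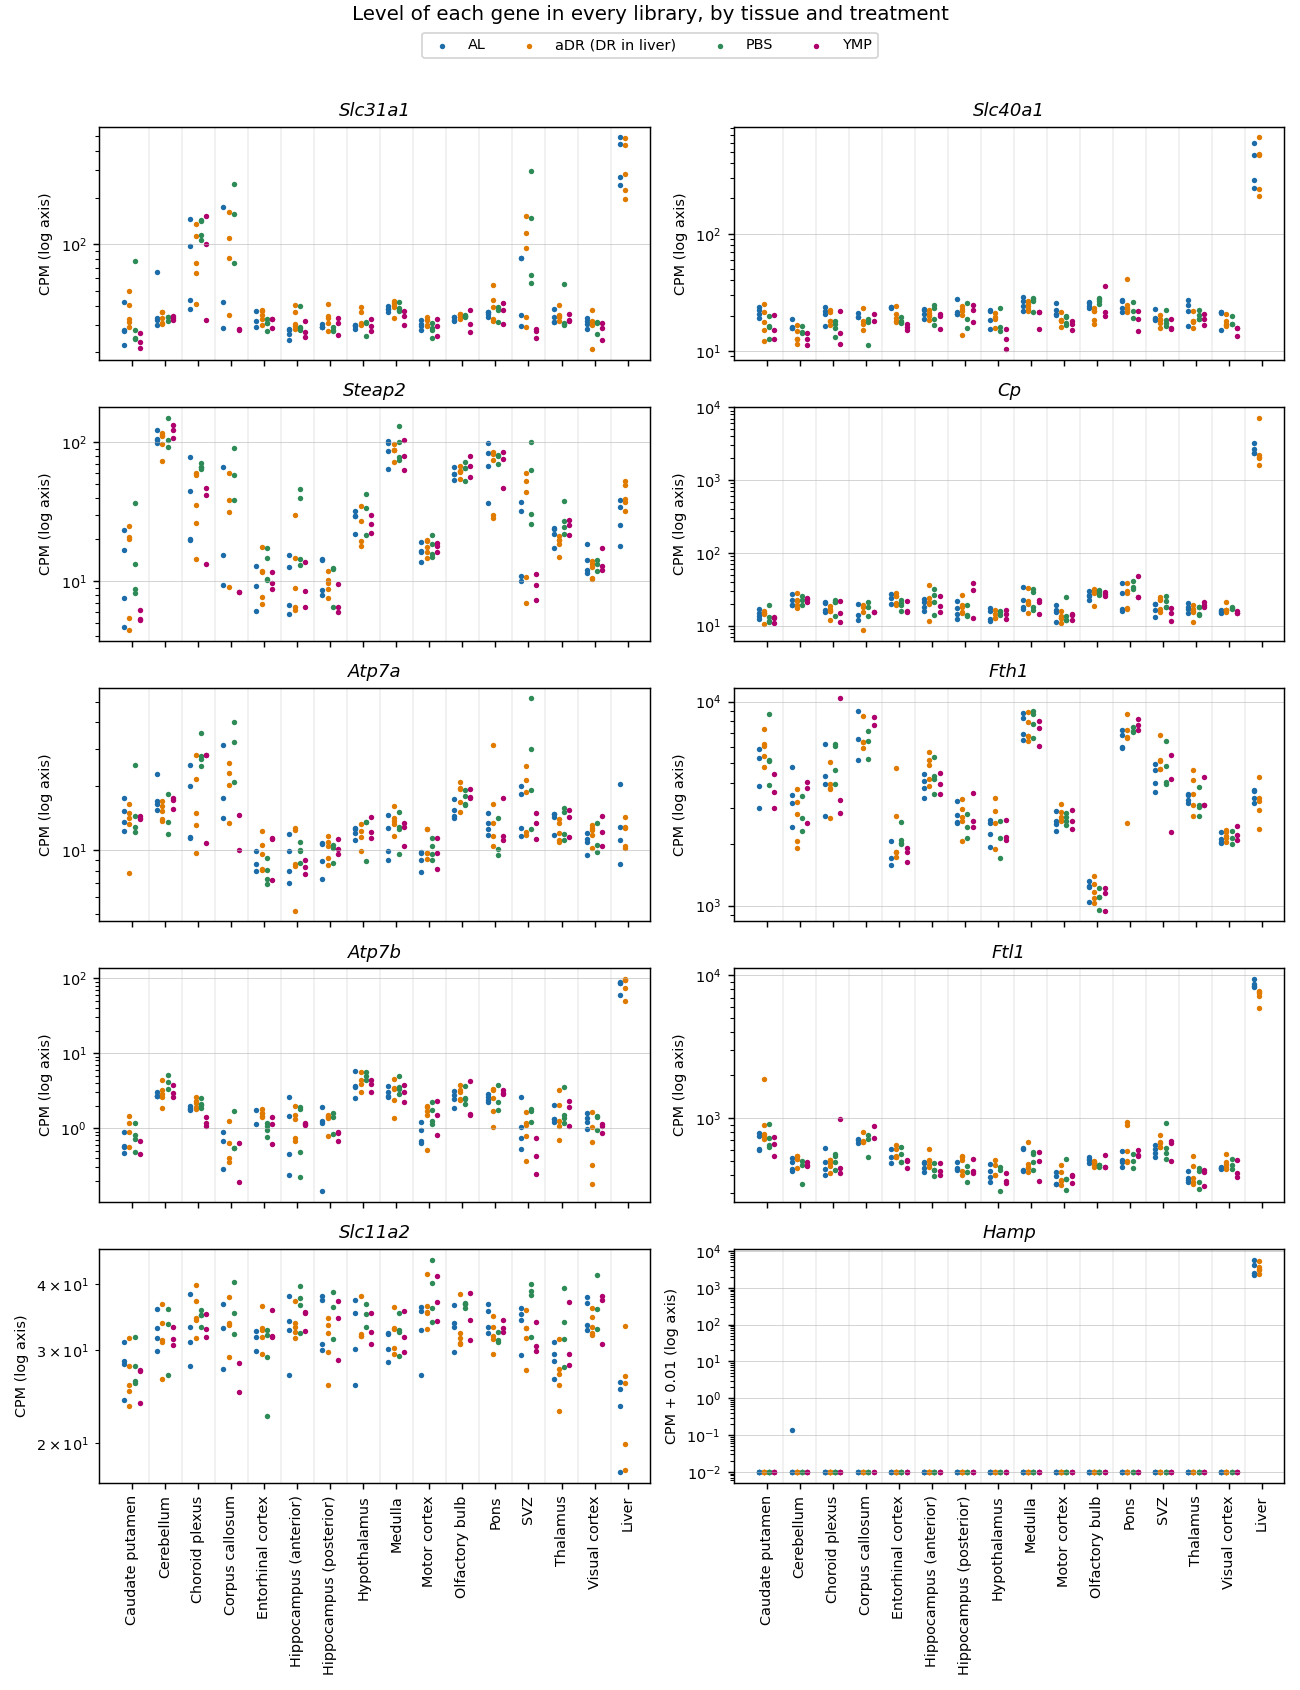
Level of each gene in every library, in CPM on a log axis (Hamp: CPM + 0.01), by tissue, with points coloured by treatment. Slc31a1 and Steap2 are widely spread within groups in choroid plexus, corpus callosum and SVZ, while Cp, Slc40a1, Atp7b, Ftl1 and Hamp are highest in liver.

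Steap2, which reduces copper and iron ions, had the widest regional range of the members. It was highest in cerebellum (108 ± 10 CPM, SD, n = 4 AL mice), then medulla (87.9 ± 17), pons (72.0 ± 27) and olfactory bulb (59.8 ± 5.0), and lowest in entorhinal cortex (9.41 ± 3.4, n = 3). The highest region mean was 11.5 times the lowest in AL mice and 11.1 times in PBS mice. Cerebellum did not overlap with olfactory bulb, but each of these regions overlapped with its neighbour in the order. In pons, Steap2 was lowest in exactly the 4 libraries that held least of the hindbrain genes, at 28.8, 29.9, 36.5 and 47.0 CPM, and lay between 68.0 and 99.1 CPM in the other 11. Without AL mouse 68, the low library among the AL mice, Steap2 in pons was at 83.9 ± 16 CPM (n = 3).

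Slc31a1 was nearly level over most of the brain. In AL mice 11 of the 15 regions had means between 26.6 CPM (anterior hippocampus) and 38.0 CPM (medulla), and the regions above them were corpus callosum (81.5 ± 80, n = 3), choroid plexus (80.8 ± 50), SVZ (56.6 ± 28) and cerebellum (40.3 ± 17). The cerebellum mean rested on AL mouse 68, at 66.0 CPM against 29.8 to 33.3 CPM in the other 3, and this library also held 2051 CPM of the choroid plexus genes. The genes whose AL region means followed Slc31a1 most closely were Slc4a5 (r = 0.94 in AL and 0.97 in PBS mice) and Kcne2 (r = 0.94 and 0.98), over the same 15 regions. Both are members of the choroid plexus list. For Steap2 the closest genes were Heatr5a (r = 0.92 and 0.87) and Rhoj (r = 0.90 and 0.84).

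The copper pumps differed from each other. Atp7a ranged only 2.38 times between regions in AL mice, from 8.87 CPM in entorhinal cortex to 21.1 CPM in corpus callosum, and its closest genes were Slc12a4 (r = 0.92 and 0.93) and Tmem179b (r = 0.86 and 0.85). Atp7b ranged 6.33 times, from 0.613 CPM in corpus callosum to 3.88 ± 1.4 CPM in hypothalamus, where the 4 AL mice were at 2.498, 3.49, 3.69 and 5.84 CPM. Hypothalamus, medulla, cerebellum, olfactory bulb and pons had the highest means of Atp7b. Pons, the last of them, did not overlap with choroid plexus, the next in order (1.84 ± 0.11 CPM), though olfactory bulb did. Pons was at 2.52 ± 0.30 CPM, and at 2.39 ± 0.20 CPM without AL mouse 68 (n = 3). The closest genes to Atp7b were Lrrcc1 (r = 0.94 and 0.87) and Trip11 (r = 0.93 and 0.89). At such low counts the order of the regions below could not be resolved.

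Among the iron genes Fth1 had the widest brain range, 6.33 times in AL mice. It was highest in medulla (7649 ± 1079 CPM, SD, n = 4), corpus callosum (6903 ± 1928, n = 3) and pons (6507 ± 654), whose ranges overlapped with each other. Pons did not overlap with the next region, caudate putamen (4514 ± 1314), though corpus callosum did. The lowest pons library, at 5910 CPM against at most 5880 CPM in caudate putamen, was that of AL mouse 68. Without it pons was at 6706 ± 635 CPM (n = 3), from 6018 CPM upwards. Olfactory bulb was lowest, at 1039, 1228, 1240 and 1326 CPM in the 4 AL mice, below every other region. The summed level of 6 oligodendrocyte genes was also highest in corpus callosum, medulla and pons (medians 26063, 24961 and 24805 CPM) but lower in entorhinal cortex (1304 CPM) than in olfactory bulb (3709 CPM), where Fth1 was lower. The closest gene to Fth1 was Cpox, an enzyme of haem synthesis (r = 0.98 and 0.96), followed by Trim36 (r = 0.94 and 0.93).

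The other iron genes were flatter. Ftl1 ranged 1.84 times, from 377 CPM in motor cortex to 693 ± 22 CPM in corpus callosum, Cp 1.82 times, with olfactory bulb highest (26.1 ± 3.0 CPM), and Slc40a1 1.54 times, from 16.5 ± 1.5 CPM in cerebellum to 25.4 ± 2.9 CPM in medulla. Slc11a2 was the most even member, from 28.1 to 35.3 CPM, and all its neighbouring regions overlapped. The closest genes were Sgk3 (r = 0.90 and 0.90) and Fam184b (0.89 and 0.78) for Ftl1, Serping1 (0.85 and 0.83) and Fcgrt (0.83 and 0.77) for Cp, Pcyt1b (0.85 and 0.80) and Rwdd2b (0.83 and 0.28) for Slc40a1, and Trip10 (0.78 and 0.49) and Pgm2 (0.77 and 0.56) for Slc11a2. Each r is over 15 regions and was picked as the highest of 11945 genes in AL mice, so only the PBS value was free of that choice.

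The order of regions was much the same in the 2 sets of mice for most members: the correlation of the 15 log2 region means between AL and PBS mice was 0.97 for Fth1, 0.96 for Atp7b and Ftl1, 0.94 for Slc31a1, 0.90 for Steap2 and 0.85 or less for Atp7a, Cp, Slc40a1 and Slc11a2, where it was 0.61. Without the 4 pons libraries and the hypothalamus library named above it was 0.74 for Cp, in place of 0.84, and 0.59 for Slc11a2.

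Choroid plexus was compared with the mean of the other 14 regions, with each library as a unit. These include corpus callosum and SVZ, where PBS libraries held up to 19237 and 20910 CPM of the choroid plexus genes. Slc31a1 was 1.20 higher on the log2 scale in AL mice (SE 0.21, edgeR adjusted p = 2.1e-05) and 1.64 higher in PBS mice (SE 0.19, adjusted p = 8.1e-09). Atp7a was 0.44 and 1.07 higher and Fth1 0.37 and 0.61 higher, and both were called in each set of mice by edgeR, at adjusted p of 0.017 and 0.025 in AL and 6.0e-07 and 1.1e-04 in PBS mice. Choroid plexus did not have the highest mean of Slc31a1, Atp7a, Fth1 or Steap2. In PBS mice it was at 126 CPM for Slc31a1, against 159 CPM in corpus callosum, with overlap. For Steap2 in PBS mice it was at 67.0 CPM, against 116 CPM in cerebellum. In AL mice it was at 17.0 CPM for Atp7a, against 21.1 CPM in corpus callosum, and at 4299 CPM for Fth1, against 7649 CPM in medulla. Steap2 was called in PBS mice (0.97, SE 0.23, edgeR adjusted p = 0.0012) and missed the threshold in AL mice (0.67, SE 0.28, adjusted p = 0.069, or 0.041 with the mouse as a block). In all, 3 of 9 members tested were called in AL mice, all higher, where 29.4% of all genes were called and 18.1% were called higher. In PBS mice it was 4 of 9, all higher, where 29.9% of all genes were called and 16.8% were called higher. Without AL mouse 68 or 69, Slc31a1 was the 1 member called in AL mice, and with the block Slc40a1 was also called in PBS mice, where it was lower (-0.28, edgeR adjusted p = 0.046).

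In choroid plexus itself, Slc31a1 was high in libraries that held much of the choroid plexus genes and low in those that held little. In PBS mice it was at 106, 115, 141 and 143 CPM, with 8025 to 10539 CPM of those genes. In AL mice it was at 37.8 CPM in mouse 66 and 43.7 CPM in mouse 63, where the plexus genes summed to 693 and 1051 CPM, and at 97.4 and 144 CPM in mice 68 and 69, where they summed to 6107 and 8839 CPM. The aDR and YMP mice spanned the same range, from 32.4 CPM (YMP mouse 73, with 164 CPM of those genes) to 153 CPM (YMP mouse 77, with 15753 CPM). In bulk tissue, fewer cells of a type and less RNA per cell cannot be told apart.

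Other genes of the pathways were read from lists of 21 copper and 36 iron genes. Their counts in choroid plexus stand against the 29.4% of all genes called in AL mice and the 29.9% in PBS mice and lie near or below it. Of 20 copper genes tested, 3 were called in AL mice and all 3 were higher. The leading one was Steap1, a relative of Steap2 (5.54, SE 0.58, edgeR adjusted p = 2.5e-10; 5.60 in PBS mice), and the others were Ccs (0.23) and Sco2 (0.17). In PBS mice 4 were called, Steap1 and Sod3 (0.48) higher and Cox17 (-0.40) and Coa6 (-0.29) lower. Of 33 iron genes tested, 9 were called in AL mice, all higher, and 10 in PBS mice, 9 of them higher. They included Tfr2, a transferrin receptor (1.096 and 0.86), Trf, transferrin itself (0.67 and 1.26), Hfe, a partner of transferrin receptors (0.58 and 0.996), and Bmp6, the ligand that drives Hamp in liver (0.60 and 1.18). Cybrd1, an iron reductase (1.13 and 0.91), Slc46a1, a haem and folate carrier (0.50 and 0.58), and Slc22a17, a lipocalin receptor (0.45 and 0.53), were also called in both. Bmp2 (0.56) and Id1 (0.46) were called in AL mice and Smad6 (0.65), Fbxl5 (0.16) and Slc25a28 (-0.24) in PBS mice. The median of the iron list was 0.10 in AL and 0.11 in PBS mice, against 0.01 and -0.02 over all genes tested.

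Liver was higher than brain for 6 of the 10 members, in a fit with each library as a unit. In AL mice, liver minus the mean of the brain regions was 7.17 for Cp (SE 0.085), 5.72 for Atp7b (SE 0.15), 4.23 for Slc40a1 (SE 0.077), 4.16 for Ftl1 (SE 0.055) and 3.29 for Slc31a1 (SE 0.17), all higher at edgeR adjusted p of at most 2.6e-24. Slc11a2 was lower (-0.44, SE 0.091, edgeR adjusted p = 1.6e-05). Fth1 (0.05, SE 0.13), Atp7a (0.04, SE 0.17) and Steap2 (0.17, SE 0.31) were not called. With Hamp, 7 of 10 members were called, where 86.2% of all genes were. The median of all genes was -0.28 here, and -0.19 with other scaling factors (RLE), so the changes stand relative to that shift.

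The other pathway genes also differed between the organs, as did 86.2% of all genes. Of 35 iron genes tested 34 were called by edgeR between liver and brain, 25 of them higher in liver. The largest differences were those of Hamp2, the near copy of Hamp (16.9, SE 0.18), the plasma carriers Hpx (15.1, SE 0.12) and Hp (14.04, SE 0.14), and Tmprss6 (11.2), which acts on Hamp expression. Hjv (7.56) and Tfr2 (6.81), which also act on Hamp, and Lcn2, a carrier of bacterial iron chelators (7.37), followed. Slc22a17 was lower in liver (-7.51). Of 20 copper genes 14 were called, a smaller share than of all genes, and 12 of them were higher. The largest differences were those of Steap4, a metal reductase (7.995), Ccs (4.14) and Sod1 (3.91).

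The RNAs of the 2 ferritin chains stood in different proportions in the organs. Per kilobase, AL liver held 1001 CPM of Fth1 and 6532 CPM of Ftl1, while in 14 of 15 brain regions Fth1 was above Ftl1. The exception was olfactory bulb, with 348 CPM per kb of Fth1 and 385 CPM per kb of Ftl1. The widest gap was in medulla, with 2205 and 390 CPM per kb. These proportions depend on the length used, the union of all annotated exons (3.469 kb for Fth1 and 1.34 kb for Ftl1). Before division by length, AL olfactory bulb held 1208 CPM of Fth1 and 516 CPM of Ftl1, and AL liver 3473 and 8753 CPM. Hamp was at 2229, 2487, 4280 and 5856 CPM in the AL livers. Set against its single brain count, the ratio of the AL liver mean to the brain level was 7.9e+06, with a counting interval from 1.4e+06 to 3.1e+08.

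Dietary restriction was first read within each tissue. None of the 10 members was called in any of the 16 tissues, in 141 tests by edgeR, where 0.0616% of all tests over all genes were called. DESeq2 also called 0, where it called 0.257% of all tests, counting those it left without an adjusted p. Of the 141 tests, 10 had an unadjusted p under 0.05 by edgeR, where 6.39% of all tests did. Slc40a1 accounted for 5 of these 10, all lower under restriction.

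Slc40a1, the iron exporter, was lower in 14 of 15 brain regions. The regions come from the same mice, so counts of regions with the same sign, here and below, are not counts of independent observations. In olfactory bulb the AL mice were at 23.4, 24.4, 25.7 and 25.9 CPM and the aDR mice at 17.1, 18.4, 21.8, 22.03 and 23.4 CPM, so that the groups met at the edge. The log2 change was -0.31 there (SE 0.093, edgeR adjusted p = 0.20). In motor cortex the AL mice were at 20.1, 20.7, 22.5 and 25.5 CPM and the aDR mice at 15.9, 18.0, 18.3, 18.4 and 21.5 CPM, a change of -0.30 (SE 0.10, edgeR adjusted p = 0.30). The exception was pons (0.13, SE 0.21, and -0.09 without aDR mouse 67), where that mouse was at 41.1 CPM, in 1 of the 4 libraries low in hindbrain genes, and the other 4 aDR mice, at 21.6 to 24.6 CPM, lay within the AL range of 21.6 to 26.9 CPM.

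Taking 1 brain value per mouse (its level over the regions sampled, adjusted for region, in log2 CPM), the AL mice were at 4.36, 4.49, 4.51 and 4.52 and the aDR mice at 4.21, 4.30, 4.33, 4.35 and 4.35. All 5 restricted mice lay below all 4 AL mice, with the nearest 2 close together. Of all genes, 4.14% separated the groups in this direction. The difference of Slc40a1 was -0.16 (SE 0.045, limma adjusted p = 0.10, where 1.74% of all genes were called). With all libraries in 1 fit and the mouse as a block it was -0.17 and was called (limma adjusted p = 0.0013). That fit takes libraries as its observations, with the same correlation within a mouse for all genes. Its p-value therefore rests on the number of libraries as well as of mice. The share of all genes called in it is not given here. A test of whether the diet effect differed between regions called 0 of 9 members (edgeR, with 0 at an unadjusted p under 0.05), where 0.0128% of all genes were called.

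Markers of blood vessel endothelium were lower with restriction as well. The median summed level of 5 endothelium genes (Cldn5, Pecam1, Flt1, Kdr and Slco1c1) was lower in aDR than in AL mice in 14 of 15 brain regions, all but the SVZ, with no test. The sum spanned 117 to 174 CPM in AL and 90.2 to 101 CPM in aDR cerebellum, 162 to 184 and 118 to 177 CPM in olfactory bulb, and 147 to 166 and 97.1 to 149 CPM in motor cortex. Endothelial cells are among those known to make ferroportin. The part of these cells in the Slc40a1 values was not tested, and the directions of other cell type lists are not given here.

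**Figure D2:**
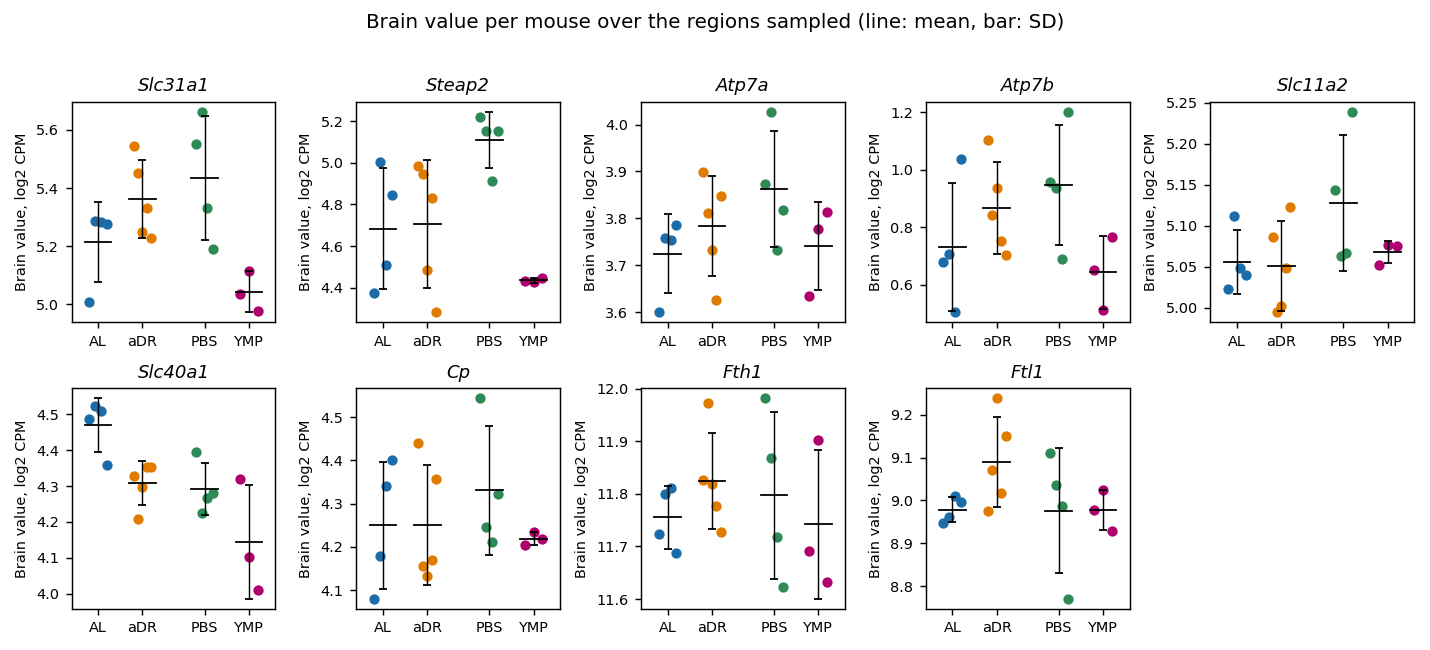
Brain value of each member per mouse in log2 CPM, with the mean (line) and SD (bar) of each group; Hamp is left out because it was not detected in nearly all brain libraries. Slc40a1 is lower in all 5 aDR mice (4.21 to 4.35) than in all 4 AL mice (4.36 to 4.52), and Steap2 is lower in the 3 YMP mice than in the 4 PBS mice.

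Of the 9 members tested per mouse over the brain, limma called 0 with diet, and 2 (Slc40a1 and Ftl1) had an unadjusted p under 0.05, as did 16.8% of all genes. The differences were 0.15 for Slc31a1 (SE 0.075), which was higher in 14 of 15 regions, 0.14 for Atp7b (SE 0.12), 0.11 for Ftl1 (SE 0.049), 0.07 for Fth1 (SE 0.063), 0.06 for Atp7a (SE 0.061), 0.02 for Steap2 (SE 0.16) and within 0.01 of 0 for Cp and Slc11a2. Without AL mouse 63, Slc31a1 was at 0.08 and Atp7a at 0.01, and Atp7b ran from 0.06 to 0.24 with 1 mouse left out. Ftl1 (limma adjusted p = 0.28) was higher in 12 of 15 regions, with aDR mouse 64 at 1893 CPM in caudate putamen, where the other 4 aDR mice were at 715 to 903 CPM and the AL mice at 603 to 785 CPM. The change there was 0.54 (SE 0.28, edgeR adjusted p = 0.62) and 0.20 without that mouse. In SVZ, Slc31a1 and Steap2 were 0.62 (SE 0.53) and 0.67 (SE 0.67) higher under restriction, where the choroid plexus genes ran from 69.0 to 3194 CPM in AL and from 32.0 to 9871 CPM in aDR mice.

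Of the copper list, 1 gene was called with diet over the brain: Ccs, the chaperone that loads copper into superoxide dismutase, was higher (0.18, SE 0.037, limma adjusted p = 0.039), where 1.74% of all genes were called. Leaving out any mouse but aDR mouse 67 lost the call (adjusted p up to 0.13), and so did leaving out choroid plexus and corpus callosum (limma adjusted p = 0.060). Of 33 iron genes tested, 0 were called by limma and 10 had an unadjusted p under 0.05, where 16.8% of all genes did. Within tissues edgeR called 0 of 253 tests of copper genes and 0 of 465 of iron genes with diet, with 18 and 54 at an unadjusted p under 0.05, where 6.39% of all tests were. DESeq2 called 1 (Sco2 in liver) and 4 (Hjv, Hamp2 and Tfrc in liver and Tfrc in motor cortex).

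In liver 0 of 10 members were called with restriction by edgeR or DESeq2, where edgeR called 0.22% of all genes. By edgeR 1 member had an unadjusted p under 0.05, as did 1074 of all 11815 genes tested. Hamp was at 2337, 2970, 3307, 3696 and 5484 CPM in the DR mice, all inside the AL range, a change of -0.06 (SE 0.33, edgeR adjusted p = 0.99). Ftl1 was at 8361, 8464, 8742 and 9446 CPM in AL and at 5915, 7145, 7480, 7676 and 7719 CPM in DR livers. The groups did not overlap, as for 2.14% of all genes in this direction, and the change was not called (-0.26, SE 0.15, edgeR adjusted p = 0.68). Steap2 was at 18.0, 25.3, 34.5 and 38.7 CPM in AL and at 32.1, 37.1, 39.4, 49.1 and 52.5 CPM in DR livers (0.55, SE 0.22, edgeR adjusted p = 0.46).

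Cp in liver turned on 1 mouse. DR mouse 67 was at 7191 CPM, and the other 4 DR mice, at 1613 to 2245 CPM, were all below the 4 AL mice, at 2324 to 3216 CPM. The change was 0.21 (SE 0.40) with mouse 67 and -0.38 without it, and was called in neither (edgeR adjusted p = 0.96 and 0.49). Slc40a1 was also highest in mouse 67 among the DR livers (667 CPM), as were Fth1 (4249 CPM) and Slc11a2 (33.4 CPM), while Atp7b was lowest (49.4 CPM). Hamp2, the near copy of Hamp, was singled out after its values were seen: it was at 1519 to 4849 CPM in AL and 819 to 1359 CPM in DR livers, a change of -1.37 that edgeR did not call (adjusted p = 0.13) and DESeq2 did (adjusted p = 0.0053). The liver change minus the brain change was called for 0 of 9 members by limma, with 2 at an unadjusted p under 0.05, where 0.0705% of all genes were called. These were Steap2 at 0.56 (SE 0.24) and Ftl1 at -0.38 (SE 0.16).

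**Figure D3:**
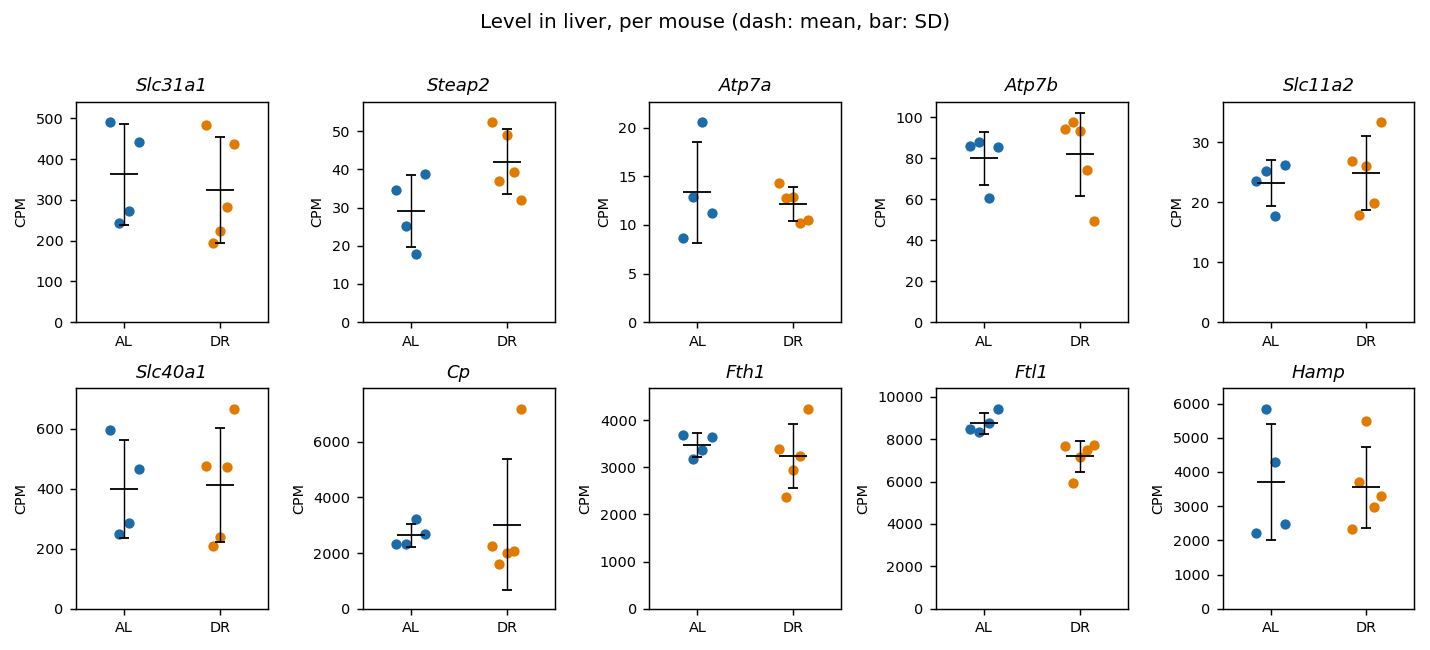
Level of each member in liver per mouse in CPM, with the mean (dash) and SD (bar) of the 4 AL and 5 DR mice; axes start at 0. Cp has 1 DR mouse at 7191 CPM above all others, and the Ftl1 values of the groups do not overlap.

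Young plasma was compared with PBS in the same regions. The list was most likely chosen by such differences of Slc31a1 and Steap2, which are given as a description. Within regions, 1 of 132 member tests was called by edgeR, where 0.0127% of all tests were: Steap2 in corpus callosum, at 8.31 and 8.34 CPM in the 2 YMP mice and at 38.8, 58.6 and 92.0 CPM in the 3 PBS mice (-2.97, SE 0.37, edgeR adjusted p = 0.040, where 0.184% of genes in that region were called). The call was lost without YMP mouse 77 or 81 or PBS mouse 80, and the change lay between -3.22 and -2.59 with any 1 mouse left out. Slc31a1 there was at 27.9 and 28.1 CPM in YMP and 75.7, 157 and 245 CPM in PBS mice (-2.55, SE 0.45, edgeR adjusted p = 0.087). Atp7a was at 10.1 and 14.7 CPM in YMP and 21.0, 32.2 and 40.0 CPM in PBS mice (-1.35, SE 0.30, edgeR adjusted p = 0.16). For all 3 genes the groups did not overlap, as for 10.3% of all genes in this direction in this region. DESeq2 called all 3 (adjusted p = 7.4e-13 for Steap2, 1.1e-07 for Slc31a1 and 0.0076 for Atp7a).

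In SVZ all 9 members tested had negative changes. None of them was called by edgeR, which called 0 of all 14120 genes tested there. At an unadjusted p under 0.05 were 4 members and 1910 of those genes. DESeq2 called Steap2 and Slc31a1 (adjusted p = 2.7e-06 and 1.6e-04). With the 3 tests in corpus callosum these made up the 5 member tests that DESeq2 called, where it called 0.348% of all tests within regions. That share also counts tests that DESeq2 left without an adjusted p. Steap2 was at 7.27, 9.35 and 11.3 CPM in YMP and 25.8, 30.3, 63.1 and 101 CPM in PBS mice (-2.58, SE 0.50, edgeR adjusted p = 0.097). Slc31a1 was at 24.7, 27.3 and 28.1 CPM in YMP and 56.2, 63.5, 147 and 296 CPM in PBS mice (-2.42, SE 0.58, edgeR adjusted p = 0.15). Atp7a overlapped between the groups (-1.17, SE 0.43). For Steap2 and Slc31a1 the PBS mice were higher and more spread than the YMP mice, and the groups did not overlap, as for 6.62% of all genes in this direction.

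The choroid plexus genes moved with these values. In corpus callosum their sum was 9.50 and 23.9 CPM in the YMP mice, with up to 7 of the 12 genes at 0, and 5254, 13602 and 19237 CPM in the PBS mice. In SVZ it was 31.5, 33.8 and 58.3 CPM in YMP and 2795, 2940, 8641 and 20910 CPM in PBS mice, and neither region overlapped. The same genes also varied within the diet groups of corpus callosum, from 50.7 to 11706 CPM in AL and from 17.9 to 11709 CPM in aDR mice, and Steap2 ran from 9.40 to 66.8 and from 9.08 to 60.4 CPM there. The part of choroid plexus tissue in the plasma differences was not tested.

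Over the 44 libraries of choroid plexus, corpus callosum and SVZ, whatever the treatment, Slc31a1 was at 24.7 to 40.9 CPM in the 14 libraries with under 1000 CPM of choroid plexus genes and at 42.4 to 296 CPM in the 30 with more. Steap2 was at 6.997 to 20.2 CPM and 15.6 to 101 CPM in these libraries, and Atp7a at 9.73 to 20.3 CPM and 11.5 to 51.9 CPM. Slc40a1, at 15.5 to 23.7 CPM and 11.2 to 22.2 CPM, and Fth1, at 2305 to 8968 CPM and 2749 to 10384 CPM, overlapped widely between them. All 5 YMP libraries of corpus callosum and SVZ were among the 14, and all 7 PBS libraries among the 30.

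**Figure D4:**
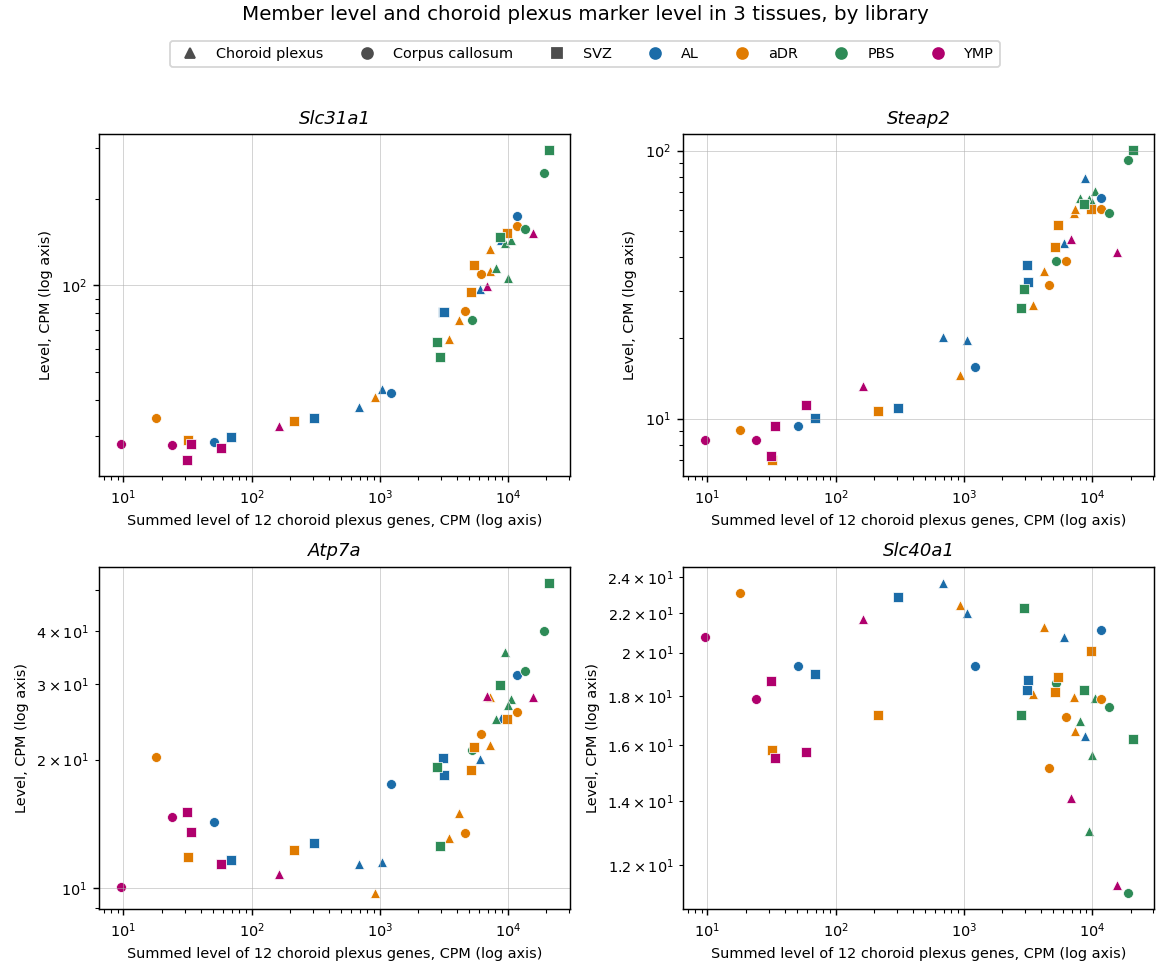
Level of 4 members against the summed level of 12 choroid plexus genes, both in CPM on log axes, in each library of choroid plexus (triangles), corpus callosum (circles) and SVZ (squares), coloured by treatment. Slc31a1 and Steap2 are higher in libraries with more of the choroid plexus genes in every treatment, and Slc40a1 is not.

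Steap2 had a negative change with plasma in 13 of 15 regions. Outside corpus callosum and SVZ neither edgeR nor DESeq2 called it in any. In caudate putamen it was at 5.27, 5.39 and 6.16 CPM in YMP and 8.22, 8.80, 13.3 and 36.7 CPM in PBS mice (-1.54, SE 0.55, edgeR adjusted p = 0.47). The highest, PBS mouse 76, held 3711 CPM of the choroid plexus genes, and the change without it was -0.82. In anterior hippocampus Steap2 was at 6.58, 8.49 and 13.9 CPM in YMP and 13.1, 14.5, 39.5 and 46.2 CPM in PBS mice (-1.61, SE 0.47, edgeR adjusted p = 0.68). Here the libraries with 39.5 and 46.2 CPM held 32.1 and 21.0 CPM of the choroid plexus genes, and the PBS library with 1527 CPM of them was at 14.5 CPM. In choroid plexus itself Steap2 was at 13.2, 42.0 and 46.7 CPM in YMP and 64.5 to 70.8 CPM in PBS mice (-0.997, SE 0.39, and -0.59 without YMP mouse 73).

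Whether the plasma change differed between regions was tested directly, with each library as a unit. Slc31a1 and Steap2 were called (edgeR adjusted p = 3.9e-04 for each), 2 of 9 members where 0.824% of all genes were called, and Atp7a was not (adjusted p = 0.059, or 0.035 with the mouse as a block and 0.010 without PBS mouse 84). The list was most likely chosen by the plasma differences of Slc31a1 and Steap2, so their calls are a description and support nothing. Without corpus callosum, Steap2 was called and Slc31a1 was not (edgeR adjusted p = 0.043 and 0.070). Without choroid plexus, corpus callosum and SVZ, neither was called (edgeR adjusted p = 0.54 for Steap2 and 1 for Slc31a1). Leaving out YMP mouse 77 or 81 lost both calls (edgeR adjusted p from 0.082 to 0.35).

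Per mouse over the brain, no member was called with plasma, and 0% of all genes were by limma (3 of 9 members and 1315 of 15768 genes had an unadjusted p under 0.05). Steap2 was at 4.43, 4.43 and 4.45 in YMP and 4.91, 5.15, 5.15 and 5.22 in PBS mice (-0.67, SE 0.072, limma adjusted p = 0.12). The groups did not overlap, as for 5.34% of all genes in this direction. With all libraries as observations and the mouse as a block it was -0.66 and was called (limma adjusted p = 0.025). Per mouse, it was also called without PBS mouse 80 (-0.75, limma adjusted p = 0.00577). The share of all genes called in either of these fits is not given here, and the block fit takes libraries as its observations. Without the 3 regions named above Steap2 was at -0.35 (limma adjusted p = 0.95), and Slc31a1 went from -0.39 (SE 0.10) to -0.09.

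Slc40a1, Cp, Slc11a2, Fth1 and Ftl1 were not called with plasma by edgeR or DESeq2 within regions, nor by limma over the brain. Slc40a1 had a negative change in 13 of 15 regions, and was at -0.15 per mouse over the brain (SE 0.079, limma adjusted p = 0.64), with YMP mice at 4.01, 4.10 and 4.32 and PBS mice at 4.22, 4.27, 4.28 and 4.40. Its most negative change, in hypothalamus, was -0.51, and -0.28 without PBS mouse 72, whose library held little of the hypothalamic genes. Cp (-0.11, SE 0.079), Slc11a2 (-0.06, SE 0.051), Fth1 (-0.06, SE 0.10) and Ftl1 (0.00, SE 0.075) lay closer to 0 or had larger errors. Within regions the change of Cp was negative in 12 of 15. In SVZ it was at 11.6, 14.9 and 17.5 CPM in YMP and 18.2, 18.2, 22.1 and 25.7 CPM in PBS mice, without overlap (-0.56, SE 0.19, edgeR adjusted p = 0.27). Of all genes tested in SVZ, 6.62% separated the groups in this direction. Cp stood furthest above PBS in posterior hippocampus, at 12.8, 30.5 and 38.2 CPM in YMP and 13.5, 14.1 and 19.0 CPM in PBS mice, with overlap (0.83, SE 0.36, edgeR adjusted p = 1). Slc11a2 in corpus callosum was at 25.01 and 28.3 CPM in YMP and 32.2, 35.3 and 40.5 CPM in PBS mice, also without overlap (-0.46, SE 0.16, edgeR adjusted p = 0.47). Of all genes tested in corpus callosum, 10.3% separated the groups in this direction. Of the copper pumps, Atp7b was at -0.30 per mouse over the brain (SE 0.13, limma adjusted p = 0.60) and Atp7a at -0.12 (SE 0.081).

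In the pathway lists, 1 of 244 tests of copper genes and 0 of 433 of iron genes were called by edgeR with plasma within regions, with 23 and 31 at an unadjusted p under 0.05. Over all genes 0.0127% of tests were called and 6.11% were at an unadjusted p under 0.05. DESeq2 called 6 and 3, all in corpus callosum or SVZ: Steap1, Steap4, Sod3 and Hfe in both, and Slc22a17 in corpus callosum. The one edgeR call was Steap1 in corpus callosum (edgeR adjusted p = 0.028), at 0.194 and 0.419 CPM in YMP and 23.2 to 85.7 CPM in PBS mice. It too was lost without YMP mouse 77 or 81 or PBS mouse 80. Sod3, the extracellular superoxide dismutase, was called for a plasma change that differed between regions (edgeR adjusted p = 0.0019) and was not without corpus callosum (0.072), without the 3 regions (1) or without YMP mouse 77 or 81 (0.082 and 0.66).

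**Figure D5:**
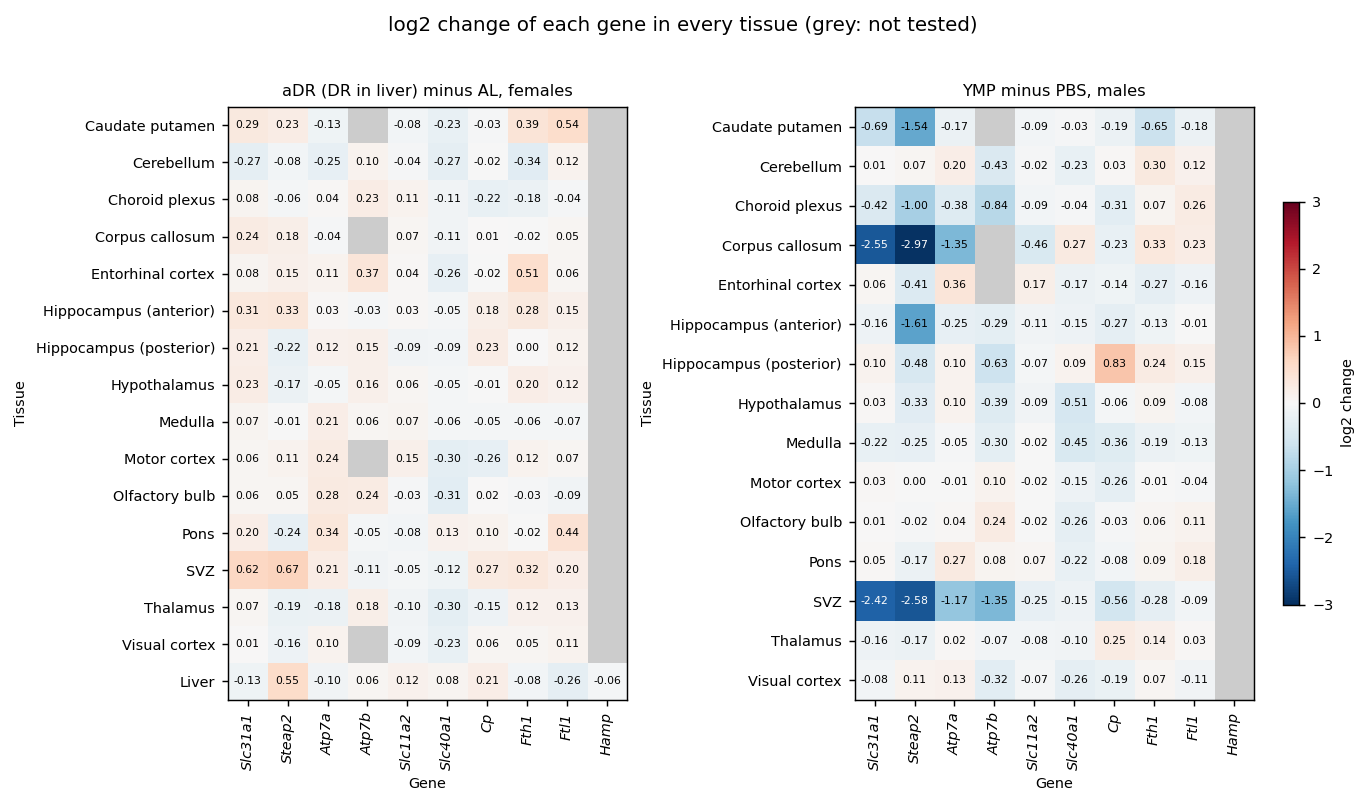
log2 change of each member in every tissue, for restricted minus AL females (left) and YMP minus PBS males (right), from blue (lower) to red (higher), with grey where a gene was not tested. The plasma changes of Slc31a1, Steap2 and Atp7a are lowest in corpus callosum and SVZ, and Slc40a1 is lower with diet in 14 of 15 brain regions.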

How the data were processed

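The deposited values are whole-number read counts per gene, 1 table made by the authors. Trim Galore 0.3.7, STAR 2.5.3a, DESeq2 and the GRCm38 build are named, with no role given, per the submitters' processing notes. The counting program and annotation are not given in the sources used here. RNA was made into full-length cDNA and tagmented, without strand information, per the labels' protocols. All 238 count columns were matched to samples by name (0 left unused), and 537 genes had no count in any library.

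The members and the pathway and marker lists were chosen with earlier results of these data known. All members were named. A pathway gene was named where it was called in a comparison, with at most 10 per comparison. For each member the 2 genes with the highest correlation over AL region means were listed, and the leading ones are printed. The search for the iron hairpin was widened from the first 50 bases after the start site to whole transcripts after the data were seen.

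Counts were fitted in R 4.3.3 with edgeR 4.0.16 (quasi-likelihood test, TMM factors, genes kept by filterByExpr at count 10 and total 15) within tissues, between tissues and for the region-by-treatment test. Brain values per mouse (prior count 2) were fitted with limma 3.58.1. P-values were Benjamini-Hochberg adjusted over all genes of a fit, and a gene was called at an adjusted p under 0.05. Tests are two-sided. The alternatives were DESeq2 1.42.0, RLE factors, no filter, a prior count of 0.5, the mouse as a replicate block, regions left out, limma without its trend, each mouse left out and, chosen after seeing the data, 5 libraries low in markers of their region left out of the levels. Scripts were tested on simulated data. CPM use TMM-scaled library sizes, which raises liver values above plain CPM. SE of an edgeR change was computed from its F statistic. Libraries with 1 mouse number come from 1 animal, which the labels give and which pairs its regions: deviations of libraries from their group means correlated at 0.040 within and -0.005 between diet mice, and at 0.072 and -0.012 for plasma. No 2 libraries of a group agreed within sampling noise (357 pairs).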

Additional observations from a re-analysis of the deposited data

Results flagged for a closer look

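Of 68 groups of 4 to 10 samples checked for 1 value far from the rest, 4 had one, where chance gives 3.4. The brain value of Atp7a in AL mouse 63 was 3.60 log2 CPM, with the remaining AL mice at 3.75 to 3.79. That of Slc31a1 in the same mouse was 5.01, with the remaining AL mice at 5.28 to 5.29. Atp7b in the liver of AL mouse 68 was 60.7 CPM against 85.4 to 88.1 CPM. Cp in the liver of DR mouse 67 was 7191 CPM against 1613 to 2245 CPM in the other 4 DR mice. The plasma change differed between brain regions for Slc31a1 and for Steap2 (edgeR adjusted p = 3.9e-04 for each), with the values of the choroid plexus genes in the same libraries given above. The list was most likely chosen by these differences, so they are a description only.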

How the results depend on the processing

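Of the 95 values of single genes recomputed, 69 kept their sign under every alternative tried. Shares of all genes called are given above for the main fits and DESeq2, and not for the other alternatives. The counts below therefore do not show whether members changed more than other genes did. Counts of members called changed as follows, and the causes were not tested beyond what each alternative's construction shows (fewer libraries or regions). The 2 members whose plasma effect differed between regions became 1 without corpus callosum and 0 without choroid plexus, corpus callosum and SVZ, and 0 to 3 with 1 mouse left out. With the mouse as a replicate block the count was 1 (Slc40a1) in place of 0 for diet across the brain and 1 (Steap2) in place of 0 for plasma. Both are limma fits with libraries as observations and the same correlation within a mouse for all genes. Leaving out 1 mouse gave 0 to 1 for plasma across the brain. Plasma within regions gave 1 member test called by edgeR, 5 by DESeq2, 3 with no filter, and 0 to 3 with 1 mouse left out. Choroid plexus in AL mice gave 3, and 1 to 4 with 1 mouse left out. The replicate block also added Steap2 in choroid plexus of AL mice, Slc40a1 in choroid plexus of PBS mice and Atp7a in the plasma test between regions. Leaving out the 3 regions together, and limma without its trend, were chosen after seeing the data.

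Signs turned for values near 0. Steap2 with diet across the brain was -0.000817 without choroid plexus and corpus callosum and -0.0381 without SVZ as well, and ran from -0.0870 to 0.130 with 1 mouse left out. Atp7a with plasma was 0.0568 without the 3 regions. Ftl1 with plasma was -0.00047 with RLE factors, -0.0234 without choroid plexus and corpus callosum and -0.0228 without the 3 regions. Cp in choroid plexus was 0.00448 with no filter in AL mice, and 0.0107 with RLE factors and 0.0289 with no filter in PBS mice.

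With 1 mouse left out, the ranges that crossed 0 were these. Diet across the brain: Cp -0.0588 to 0.0478 and Slc11a2 -0.0210 to 0.0147. Plasma across the brain: Fth1 -0.136 to 0.00546 and Ftl1 -0.0713 to 0.0469. Choroid plexus in AL mice: Cp -0.0456 to 0.0349, Slc40a1 -0.0861 to 0.00464, Ftl1 -0.152 to 0.0731 and Slc11a2 -0.0718 to 0.128; in PBS mice, Cp -0.0621 to 0.126 and Slc11a2 -0.0112 to 0.0781. Liver against brain: Atp7a -0.208 to 0.157 and Fth1 -0.00318 to 0.137. Diet in liver: Slc31a1 -0.317 to 0.0406, Atp7a -0.271 to 0.189, Atp7b -0.0437 to 0.197, Cp -0.385 to 0.364, Slc40a1 -0.151 to 0.329, Fth1 -0.188 to 0.0124, Slc11a2 -0.00845 to 0.218 and Hamp -0.251 to 0.264. Atp7a with plasma in caudate putamen ran from -0.278 to 0.118. With diet in corpus callosum, Slc31a1 ran from -0.140 to 1.39 and Steap2 from -0.237 to 1.38, and in pons Fth1 ran from -0.159 to 0.175. Corpus callosum, with 2 YMP libraries, limits what the plasma comparison can resolve, and counts of Atp7b were low in every brain region.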
